A study of Mus musculus with 8 samples.

Results

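The genes described here are 7 genes of the neutrophil and monocyte precursor programme, Mpo, Elane, Prtn3, Ctsg, Ms4a3, F13a1 and Rab44, taken by name as 7 of the 32285 rows of the table of counted RNA molecules. All 7 were detected. Their order of onset, their detection together in single nuclei and their low level in stem cell and lymphoid nuclei are described across 17 clusters of nuclei that were made without these 7 genes.

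The study sorted marrow cells that lack lineage markers and carry Sca1 and ckit (LSK cells), where blood stem cells and multipotent progenitors are found, and read RNA and open chromatin from their nuclei with the 10x multiome method. The mice carried the T58A point mutation of MYC or were WT littermates, and the labels name 8 samples, 2 per genotype and assay, each made from 2 mice; the labels give no age. The chromatin samples were not used here. The table holds 8708 nuclei whose barcodes end in a number from 1 to 4 (barcode sets), and nothing in the sources used here ties a set to a genotype or a replicate, so T58A nuclei and WT nuclei cannot be told apart and were not compared. The table's own name holds T58A only, which leaves it uncertain whether WT nuclei are among the counts. The table was therefore treated as 1 sample with no test, and the values of the 4 sets are given beside each pooled value.

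Primary granules are made at the promyelocyte stage of neutrophil development and carry enzymes that kill or digest microbes. Mpo encodes myeloperoxidase, a heme enzyme that makes hypochlorous acid. Elane, Prtn3 and Ctsg encode the serine proteases neutrophil elastase, proteinase 3 and cathepsin G. Ms4a3 encodes a membrane protein of granulocyte and monocyte progenitors, F13a1 the A subunit of coagulation factor XIII, which is known from monocytes, macrophages and platelets, and Rab44 a large Rab GTPase known from mast cells and other marrow cells. The last 3 are therefore genes of the same progenitors and not proteases of the granule.

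In GRCm38.p6 (the NCBI assembly that corresponds to mm10, the build in the submitters' processing notes) Mpo lies at chr11:87793784-87804412, Ctsg at chr14:56099885-56102574, Ms4a3 at chr19:11629499-11640851, F13a1 at chr13:36867178-37050244 and Rab44 at chr17:29114128-29148980. Prtn3 at chr10:79879667-79883174 and Elane at chr10:79886312-79888216 are neighbours on the same strand, with 3137 bases between the end of Prtn3 and the start of Elane. The promoter windows of the heme enzyme and the 3 proteases are shown because their RNAs shared a pattern across nuclei, and because each holds the letters GGAAGT, the core bound by ETS factors such as PU.1. The windows run 5′ to 3′ on the gene's strand, from 250 bases before to 50 bases after the start of the RefSeq transcript, and capitals mark GGAAGT.
Mpo, chr11:87793534-87793833, plus strand: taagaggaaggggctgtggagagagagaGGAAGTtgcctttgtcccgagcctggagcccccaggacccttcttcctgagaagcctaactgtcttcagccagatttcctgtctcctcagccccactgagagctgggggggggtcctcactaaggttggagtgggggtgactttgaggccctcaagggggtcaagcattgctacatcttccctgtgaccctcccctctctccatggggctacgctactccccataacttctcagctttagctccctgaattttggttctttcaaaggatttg
Elane, chr10:79886062-79886361, plus strand: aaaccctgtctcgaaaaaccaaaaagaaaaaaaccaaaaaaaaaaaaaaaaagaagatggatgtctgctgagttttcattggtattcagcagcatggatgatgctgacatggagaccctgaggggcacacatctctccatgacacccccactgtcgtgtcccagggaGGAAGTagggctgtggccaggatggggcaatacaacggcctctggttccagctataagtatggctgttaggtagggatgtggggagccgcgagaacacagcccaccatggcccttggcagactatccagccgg
Prtn3, chr10:79879417-79879716, plus strand: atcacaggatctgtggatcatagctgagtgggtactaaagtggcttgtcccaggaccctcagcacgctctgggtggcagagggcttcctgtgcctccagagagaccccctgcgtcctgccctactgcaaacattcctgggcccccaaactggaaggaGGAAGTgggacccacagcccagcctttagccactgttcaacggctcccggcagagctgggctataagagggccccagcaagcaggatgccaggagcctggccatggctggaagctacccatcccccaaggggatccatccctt
Ctsg, chr14:56102525-56102824, minus strand: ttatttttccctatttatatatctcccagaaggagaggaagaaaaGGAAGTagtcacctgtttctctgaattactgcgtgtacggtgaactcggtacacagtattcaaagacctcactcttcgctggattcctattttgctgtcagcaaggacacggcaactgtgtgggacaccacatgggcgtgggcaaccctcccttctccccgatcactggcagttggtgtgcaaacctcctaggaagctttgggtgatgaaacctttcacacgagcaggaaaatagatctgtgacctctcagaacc

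RefSeq windows were found for 6 of the 7 genes, with 2 starts for F13a1. The motifs were chosen after these sequences were seen. GGAAGT, searched on both strands, was present in 6 of the 7 windows and in all 6 genes, while 23.8% of 32851 mouse promoter windows of 300 bases held it. It began at position -222 in Mpo, -83 in Elane, -93 in Prtn3 and -205 in Ctsg relative to the start. The longer letters GAGGAAGT, which overlap the shorter ones, were present in 4 windows, those of Mpo, Elane, Prtn3 and the second start of F13a1, against 3.20% of all windows. TATAA was present in 3 windows, those of Elane, Prtn3 and Ctsg, against 24.9% of all windows. It began at -31 in Elane and -32 in Prtn3 on the gene's strand, but at -236 on the opposite strand in Ctsg. AGATAA, the letters of a GATA site, was in 0 of the 7 windows and in 11.2% of all windows, and with 7 windows a count of 0 is near that share. The other letters searched were AACNG for MYB, GCAAT for a C/EBP half-site and TGTGGT for RUNX. They were in 6, 3 and 1 of the 7 windows, against 80.3%, 26.4% and 16.8% of all windows. A match describes letters in a window, and binding was not measured here.

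The 8708 nuclei held 45723860 UMIs (unique molecular identifiers, each a counted RNA molecule), with a median of 4147.5 and a range of 1001 to 24786 per nucleus. The sets held 2999, 721, 2756 and 2232 nuclei, their median depths were 3035, 6764, 3638.5 and 5930.5 UMIs, and 36 barcodes occurred in more than 1 set. Mitochondrial RNA took 24.6%, 9.98%, 24.2% and 9.22% of the UMIs in sets 1 to 4. Clusters were named only from marker genes other than the 7. The myeloid progenitor-like cluster held 778 nuclei and met 12 of 15 myeloid markers, including Cebpa, Csf1r, Irf8 and Gfi1. The HSC-like cluster (hematopoietic stem cell markers such as Procr, Hlf and Mecom, 8 of 9 met) held 1227 nuclei, and the lymphoid progenitor-like cluster (Dntt, Flt3, Il7r, 7 of 9 met) held 910. Clusters without a name are called by a leading gene. The Camp-led cluster of 141 nuclei met both myeloid progenitor and neutrophil markers. The Fn1-led cluster of 81 nuclei met 5 myeloid progenitor markers and 5 endothelial and stromal ones, so it may be a mixture.

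All 7 genes together gave 53421 UMIs, 0.117% of the table, and 62.3% of nuclei held at least 1 of these UMIs. Mpo gave 29854 UMIs in 48.3% of nuclei, Prtn3 6953 in 25.9%, Rab44 4773 in 22.9%, F13a1 3859 in 9.49%, Elane 3831 in 9.03%, Ctsg 3193 in 13.4% and Ms4a3 958 in 4.78%. These totals do not rank the genes, because a count depends on the length of a transcript and on how it is captured. Below, a level is the sum of a gene's UMIs over a cluster in counts per 1000000 UMIs (CPM), and each gene is compared only with itself between clusters. Intervals are exact 95% intervals and cover counting error only.

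All 7 genes were higher in myeloid progenitor-like nuclei than in HSC-like nuclei, in each of the 4 barcode sets. For comparison, 8.48% of the 10243 genes measured were at least 1.5-fold higher when pooled, and higher in each set, in myeloid progenitor-like nuclei. Mpo was at 2209, 4753, 2148 and 3185 CPM in myeloid progenitor-like nuclei of sets 1 to 4, against 67.5, 209, 69.1 and 129 CPM in HSC-like nuclei. Set 2 was the highest in both clusters. Pooled, Mpo was at 2963 CPM (2917 to 3010) in myeloid progenitor-like nuclei and 112 CPM (103 to 122) in HSC-like nuclei, a ratio of 26.4 (24.3 to 28.8).

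Elane was at 217, 655, 242 and 405 CPM in myeloid progenitor-like nuclei of sets 1 to 4, against 4.38, 26.6, 14.3 and 8.02 CPM in HSC-like nuclei. Its pooled ratio was 31.0 (24.0 to 40.8). Ctsg was at 181, 710, 232 and 280 CPM in myeloid progenitor-like nuclei, against 10.5, 33.0, 6.76 and 6.42 CPM in HSC-like nuclei, a ratio of 27.4 (21.1 to 36.1). For both proteases set 2 was the highest in each of the 2 clusters. Prtn3 was the member with the smallest ratio, 8.73 (7.81 to 9.78). It was at 379, 1155, 304 and 667 CPM in myeloid progenitor-like nuclei of the 4 sets and at 60.5, 103, 56.3 and 65.8 CPM in HSC-like nuclei. Set 2 was again the highest in both.

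Ms4a3 was at 76.7, 185, 63.0 and 91.5 CPM in myeloid progenitor-like nuclei, against 3.51, 5.07, 3.75 and 1.07 CPM in HSC-like nuclei. The HSC-like values rest on 15 UMIs in all, and the ratio of 33.0 has the wide interval of 19.8 to 59.3. F13a1 had the largest ratio, 66.5 (49.4 to 91.7), with 378, 813, 359 and 724 CPM in myeloid progenitor-like nuclei, against 11.4, 11.4, 6.76 and 6.95 CPM in HSC-like nuclei. Rab44 was at 401, 316, 398 and 302 CPM in myeloid progenitor-like nuclei, against 5.26, 17.8, 9.01 and 12.3 CPM in HSC-like nuclei, a ratio of 32.7 (25 to 43.6). Rab44 was the only member whose myeloid level was not highest in set 2. Sets 2 and 4 also had the greater depth and the lower mitochondrial share; their part in these differences between sets was not tested.

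**Figure D1:**
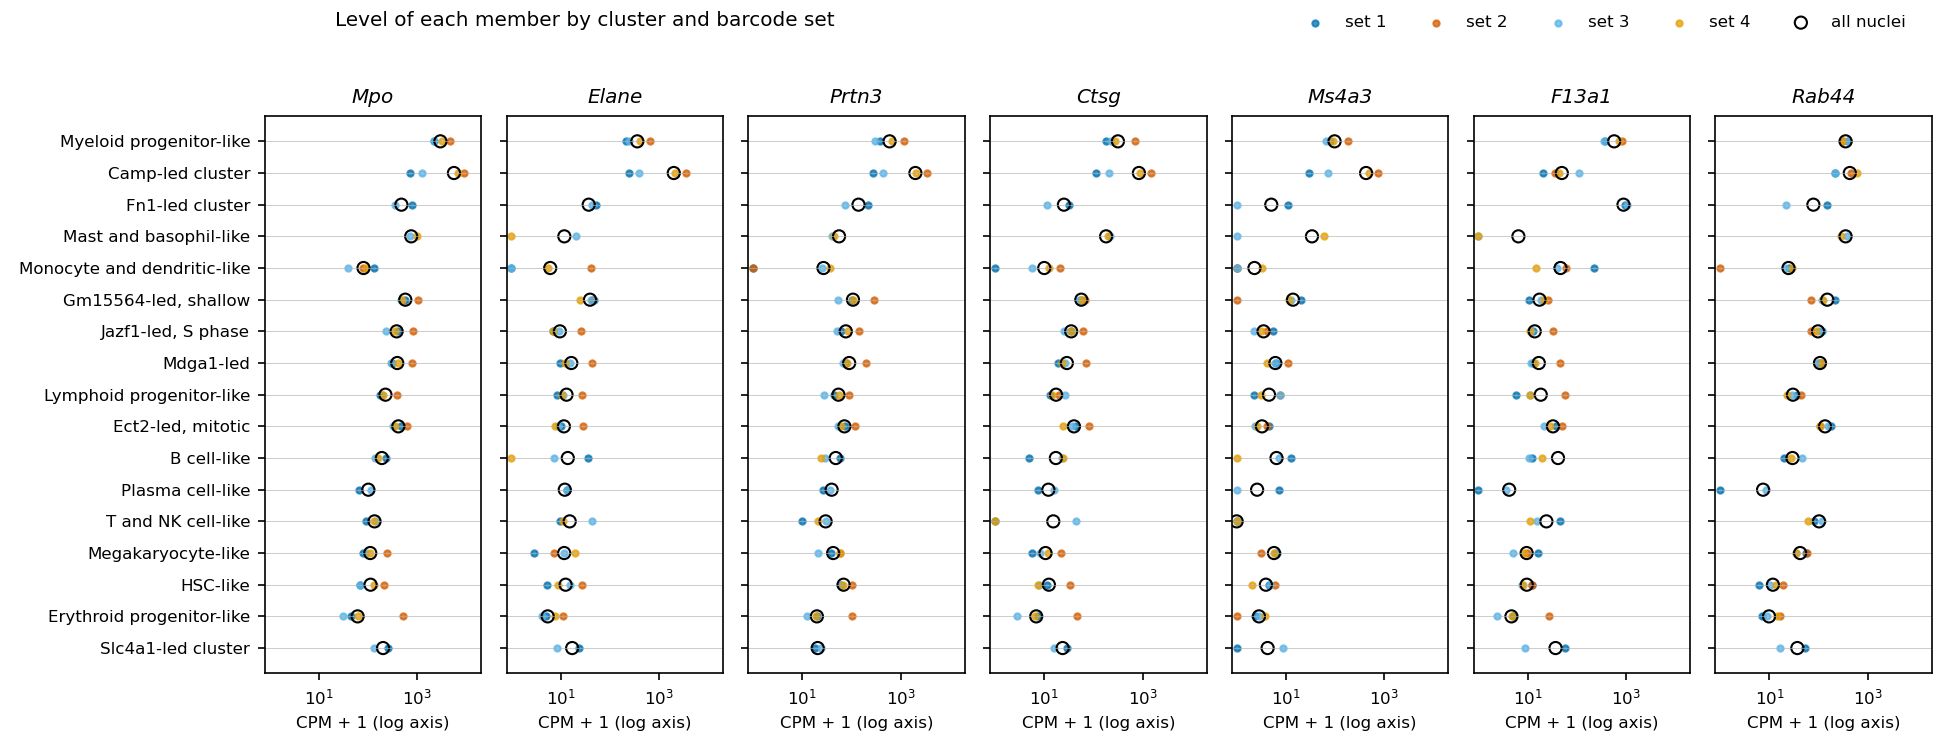
Level of each of the 7 genes (CPM + 1, log axis) in 17 clusters of nuclei. Open circles are all nuclei of a cluster and coloured points are barcode sets with at least 10 nuclei there; Mpo stood at 2963 CPM in myeloid progenitor-like nuclei, against 112 CPM in HSC-like nuclei.

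The Camp-led cluster carried Elane at a higher level and F13a1 at a lower level than the myeloid progenitor-like cluster in each set, while the other members differed between sets. Camp encodes cathelicidin, a protein of secondary granules, which are made after primary ones. Elane was at 1999 CPM in Camp-led nuclei and 362 CPM in myeloid progenitor-like nuclei, a ratio of 5.52, and the ratio was above 1 in each set (1.15, 5.40, 1.61 and 5.20). Pooled, Prtn3 stood at 3.35 times, Ctsg at 2.67 times and Ms4a3 at 4.40 times the myeloid progenitor-like level, but in set 1 they were at 0.706, 0.634 and 0.374 times. Mpo was at 1.88 times when pooled, at 0.316 and 0.572 times in sets 1 and 3 and at 1.86 and 2.09 times in sets 2 and 4. The direction for these 4 genes therefore rests on which sets are counted. F13a1 was at 48.4 CPM in Camp-led nuclei and 570 CPM in myeloid progenitor-like nuclei, a ratio of 0.0848 (0.0593 to 0.118) that was below 1 in every set, from 0.0425 to 0.310. The cluster held 47, 18, 47 and 29 nuclei of sets 1 to 4. It was a mixture: at a finer clustering 56 of its nuclei fell in a cluster led by Elane and 84 in one that met neutrophil markers. The cluster with neutrophil markers held 44, 1, 40 and 0 nuclei of sets 1 to 4, and Elane was at 120 CPM there when pooled.

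A finer clustering (resolution 1.2 in place of 0.8) divided the Camp-led nuclei and the myeloid progenitor-like nuclei. A cluster of 431 nuclei, 373 of them from the myeloid progenitor-like cluster and 56 from the Camp-led one, was led by Elane, and another of 653 nuclei, 316 myeloid progenitor-like and 319 from the Ect2-led cluster, a mitotic cluster that met 4 lymphoid progenitor markers, was led by F13a1. The F13a1-led cluster is therefore a mixture with lymphoid progenitor-like nuclei: Dntt, a gene of lymphoid progenitors, was at 13.6 CPM in the Elane-led cluster and 382 CPM in the F13a1-led cluster. Elane was at 997 CPM in the Elane-led cluster and 41.0 CPM in the F13a1-led cluster, a ratio of 24.3 that held in each set (17.2, 14.2, 17.6 and 40.8). Ms4a3 was at 243 CPM in the Elane-led cluster and 8.51 CPM in the F13a1-led cluster, a ratio of 28.5. The other ratios between these clusters were 7.48 for Prtn3, 6.19 for Ctsg, 4.98 for Mpo and 2.71 for Rab44. F13a1 ran the other way, at 282 CPM in the Elane-led cluster and 459 CPM in the F13a1-led cluster (0.614; 0.688, 0.514, 0.461 and 0.622 in the sets). Irf8, a transcription factor gene of monocytes and dendritic cells, was at 91.2 CPM in the Elane-led cluster and 300 CPM in the F13a1-led cluster. Gfi1, a repressor gene of the neutrophil branch, was at 56.2 CPM in the Elane-led cluster and 10.3 CPM in the F13a1-led cluster. The clusters were made without the 7 genes, but the leading genes were picked by level, so these values describe the clusters, and they do not compare nuclei of the myeloid progenitor-like cluster alone.

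A further small cluster of 85 nuclei, 84 of them Camp-led, met neutrophil markers and was led by Camp, Ngp and Ltf. There Mpo was at 431 CPM, against 4739 CPM in the Elane-led cluster, a ratio of 0.0910. Elane was at 0.120 times and Rab44 at 0.463 times the level of the Elane-led cluster. Set 4 had no nucleus and set 2 had 1 in this cluster, so the comparison rests on sets 1 and 3, and its median depth was 1454 UMIs against 6273 in the Elane-led cluster. All 7 genes had a lower pooled level in these nuclei with secondary granule genes than in the Elane-led cluster.

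Outside these clusters, F13a1 and Rab44 each reached their myeloid progenitor-like level in a cluster where Elane was low. F13a1 in the Fn1-led cluster was at 1.55 times (1.34 to 1.78) its myeloid progenitor-like level, while Mpo was at 0.161, Elane at 0.101 and Prtn3 at 0.232 times. Prtn3 there, 138 CPM (95.3 to 192), was still above its 67.8 CPM in HSC-like nuclei. The ratio for F13a1 was 2.50 and 2.94 in sets 1 and 3, which held 35 and 38 of the 81 nuclei, and 0.809 in set 4, which held 6. The finer clustering gave an Fn1-led cluster of 74 nuclei, 1 of them of set 4, with F13a1 at 1033 CPM. It also gave 8 endothelial and stromal-like nuclei, 5 of them of set 4, with F13a1 at 0 CPM. The part of such nuclei in the set 4 ratio was not tested. Fn1 encodes fibronectin, made by monocytes, macrophages and stromal cells. Rab44 in mast and basophil-like nuclei (41 nuclei) was at 1.00 times (0.767 to 1.28) its myeloid progenitor-like level, with Mpo at 0.255 and Elane at 0.0302 times. The protease gene Ctsg was at 181 CPM there, 0.574 times (0.394 to 0.809) its myeloid progenitor-like level, against 11.5 CPM in HSC-like nuclei. F13a1 had 1 UMI in the 41 mast and basophil-like nuclei.

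The order of onset was read along a line from the HSC-like to the myeloid progenitor-like nuclei, drawn in components made without the 7 genes. The line held 4584 nuclei, the HSC-like and myeloid progenitor-like clusters and 3 clusters that met no lineage markers (led by Mdga1, Jazf1 and Gm15564), in 12 bins of 382 nuclei. The line orders nuclei by likeness and not by measured time. A gene's onset is the bin from which it stays at or above 25% of its highest bin. Rab44 began in bin 8, Mpo, Prtn3, Ctsg, Ms4a3 and Elane in bin 10, and F13a1 in bin 12. The ties rest on the threshold. At 10% Rab44 began in bin 5, Mpo and Prtn3 in bin 7, Ctsg in bin 8, Elane and Ms4a3 in bin 10 and F13a1 in bin 11. At 50% Rab44 began in bin 10, Mpo, Ctsg and Ms4a3 in bin 11, and Prtn3, Elane and F13a1 in bin 12.

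The level of Rab44 differed along the whole line. It was 4.16, 9.69, 23.6, 33.1, 56.4 and 52.8 CPM in bins 1 to 6 and 91.2, 134, 178, 260, 374 and 339 CPM in bins 7 to 12. Mpo stood at 77.3, 115, 134, 163, 236 and 245 CPM in bins 1 to 6 and at 399, 483, 609, 1180, 2135 and 3572 CPM in bins 7 to 12. Ctsg was at 10.7 CPM in bin 1 and at 27.7, 39.4 and 61.1 CPM in bins 7, 8 and 9. These 3 genes were thus above their bin 1 level before bins 10 to 12, where most of the myeloid progenitor-like nuclei lay. Elane instead was at 11.9 CPM in bin 1 and still at 10.7 CPM in bin 9, and then stood at 116, 192 and 463 CPM in bins 10, 11 and 12. Prtn3 began from a raised base: its level in bin 1, 70.1 CPM, was 9.35% of its highest bin, against 2.16% for Mpo, 1.11% for Rab44 and 0.764% for F13a1. F13a1 was at 6.54 CPM (3.26 to 11.7) in bin 1 and at 27.1, 13.6, 30.2, 48.0, 165 and 855 CPM in bins 7 to 12. It too was therefore above its bin 1 level before bin 10. F13a1 was the member whose level was most concentrated at the myeloid end of this line. The Camp-led cluster was not on the line. Pooled, Elane was at 1999 CPM and F13a1 at 48.4 CPM there. The line therefore does not reach the highest level of Elane, and onsets and positions hold for the nuclei on it only.

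From bin 10 on, where the level of Elane was first above its base, the bins also changed their make-up. Bin 10 held 72 myeloid progenitor-like nuclei and 202 nuclei of the Gm15564-led cluster, whose median depth of 2093 UMIs was low. Bin 11 held 312 myeloid progenitor-like nuclei and 64 of the Gm15564-led cluster, and all 382 nuclei of bin 12 were myeloid progenitor-like, with a median of 7263 UMIs. The part of depth and of the Gm15564-led nuclei in the step at bin 10 was not tested.

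The median position of each gene's UMIs, after every nucleus was thinned to 2000 UMIs, gave an order that does not need bins. It is the percentile of nuclei along the line below which 50% of the gene's UMIs lay. Rab44 was earliest at 82.4 (80.9 to 83.8), followed by Prtn3 at 87.2 (85.8 to 88.5), Mpo at 88.2 (87.8 to 88.6), Ctsg at 89.9 (88.8 to 91.1), Ms4a3 at 90.6 (88.3 to 92.6), Elane at 92.8 (91.3 to 93.8) and F13a1 at 96.2 (95.4 to 96.4). The intervals overlapped between Prtn3 and Mpo, between Ctsg and Ms4a3 and between Ms4a3 and Elane, and between no other neighbours in this order. They treat each UMI as a separate draw, although several can come from 1 nucleus, and leave out differences between sets. Mpo lay at 86.2, 85.4, 88.9 and 89.8 in sets 1 to 4, each outside its interval. Whether intervals overlap therefore does not settle which genes differ in order. Rab44 lay at 80.5, 81.6, 84.9 and 81.5 in sets 1 to 4, and F13a1 at 94.3, 93.0, 95.4 and 95.8, each below its pooled value. Of the 21 pairs of genes, 18 kept the same order in all 4 sets. Prtn3 lay before Mpo in 2 sets and after Rab44 in 3. Ms4a3 lay before Elane, as in the pooled order, in 1 set, and after it in sets 2, 3 and 4 (92.8, 91.6 and 93.6 for Ms4a3, against 89.5, 91.2 and 93.1 for Elane), so the order of these 2 genes is not settled.

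The place of F13a1 depended on how the nuclei were ordered. With diffusion pseudotime from the HSC-like nuclei in place of the line, Rab44 stayed earliest at 81.9 and Prtn3, Mpo and Ctsg followed at 88.9, 89.3 and 91.1. F13a1 then came before Ms4a3 and Elane, at 92.5 against 95.5 and 95.8. The order of F13a1 and Elane was therefore opposite in the 2 orderings, while Rab44, Prtn3, Mpo and Ctsg came in the same order and before Elane in both.

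**Figure D2:**
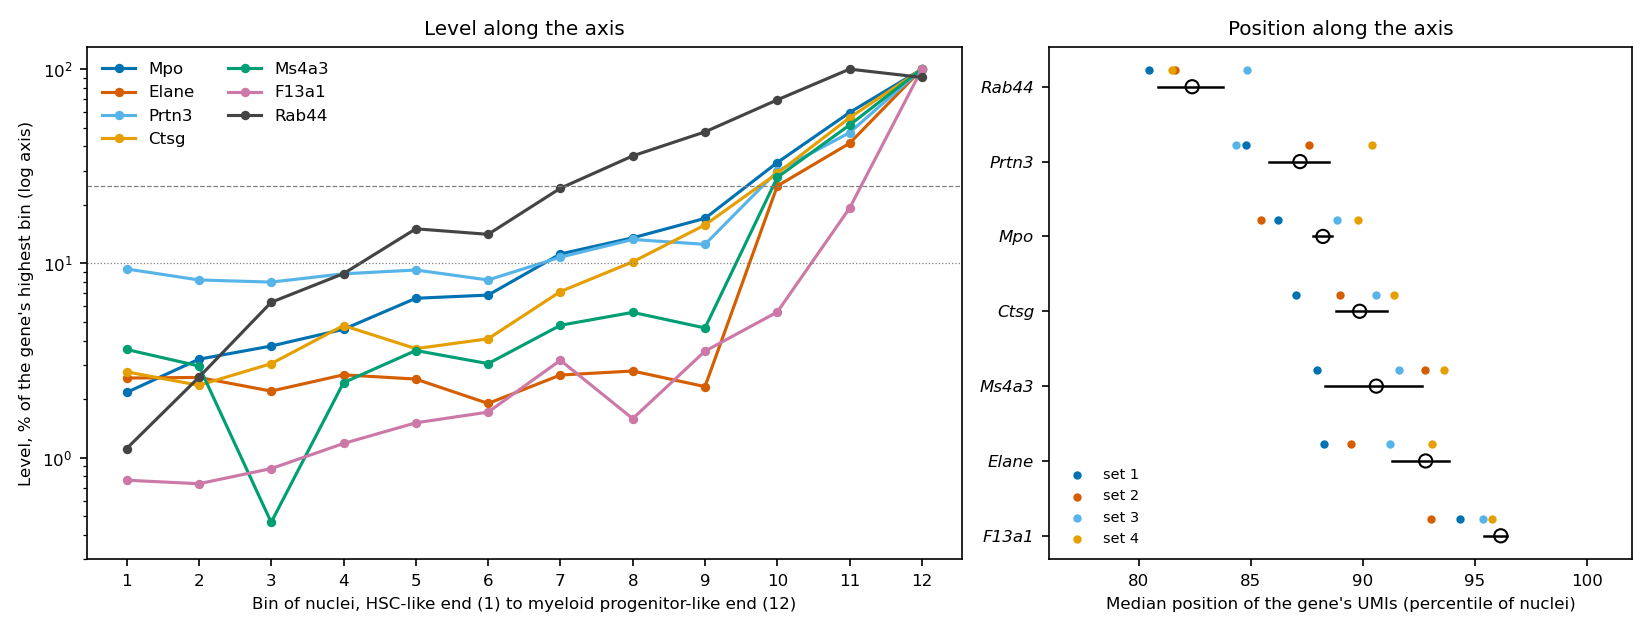
Left, level of each gene in 12 bins from the HSC-like to the myeloid progenitor-like end, as a percent of the gene's highest bin (log axis); dashed and dotted lines mark 25% and 10%. Right, median position of each gene's UMIs (percentile of nuclei) with its 95% interval, and the 4 barcode sets as points; Rab44 stood at 82.4 and F13a1 at 96.2.

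Detection in single nuclei was compared after thinning, which kept 7548 nuclei of at least 2000 UMIs and left out 1160. Mpo was found in 89.1% (86.6 to 91.2) of myeloid progenitor-like nuclei, with a median of 4 and a highest count of 34 Mpo UMIs among 2000. Rab44 was found in 47.0%, Prtn3 in 45.0%, F13a1 in 35.9%, Ctsg in 35.6%, Elane in 28.8% and Ms4a3 in 13.2% of these nuclei. Before thinning, the share with an Elane UMI was 45.0% and that with a Prtn3 UMI 70.2%, so these shares depend on depth. They also include any UMIs from free RNA: plasma cell-like nuclei, which should lack these genes, gave 14.4% for Mpo, 6.16% for Prtn3, 2.05% each for Elane and Ctsg and 1.37% for Rab44. Of the myeloid progenitor-like nuclei, 94.8% held at least 1 of the 7 genes, 60.9% held 3 or more, 31 nuclei held 6 and 0 of 749 held all 7. In Camp-led nuclei 88.5% held at least 1 gene, 70.1% held 3 or more and 3 nuclei held all 7. The members were thus found together in many nuclei of both clusters.

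Where a myeloid progenitor-like nucleus held only 1 of the 7 genes, which was the case for 94 nuclei, the gene was Mpo in 68.1%, Rab44 in 18.1% and F13a1 in 8.51%. It was Elane in 0 and Ms4a3 in 0 of the 94. Of nuclei with Elane, 99.1% (96.7 to 99.9) also held Mpo, whereas 32.1% of nuclei with Mpo held Elane. Of nuclei with Elane, 72.2% also held Prtn3, and 46.3% of nuclei with Prtn3 held Elane. Nearly all nuclei with Elane thus also held Mpo, and most nuclei with Mpo held no Elane at this depth. Over all thinned myeloid progenitor-like nuclei, 89.1% held Mpo and 28.8% held Elane. The difference between Mpo and Elane mostly follows from these 2 shares and does not order the genes.

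Over all 7548 thinned nuclei each of the 21 pairs was found together more often than the product of the 2 shares gives. This co-detection ratio ran from 1.82 to 10.5 with a median of 2.80. It was highest for Elane and Ms4a3, which shared 108 nuclei. Pooling clusters with and without these genes raises such a ratio, so it was also taken within the myeloid progenitor-like nuclei, where it had a median of 1.09 and exceeded 1 in 18 of 21 pairs.

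Within myeloid progenitor-like nuclei the proteases and Ms4a3 were found together more often than expected, while F13a1 was found less often than expected with Elane, Ms4a3 and Rab44 and near expectation with Prtn3 (1.02) and Ctsg (1.04). Elane and Ms4a3 shared 65 nuclei, a ratio of 2.28 (2.11, 1.87, 2.30 and 2.56 in the sets). Elane and Prtn3 shared 156 nuclei at a ratio of 1.61 (1.82, 1.18, 1.77 and 1.47), Prtn3 and Ms4a3 69 nuclei at 1.55, Ctsg and Ms4a3 52 nuclei at 1.47, Elane and Ctsg 111 nuclei at 1.44, and Prtn3 and Ctsg 165 nuclei at 1.37. The 3 pairs below 1 all held F13a1. Ms4a3 and F13a1 shared 19 nuclei where 35.6 were expected, a ratio of 0.534 (0.51, 0.65, 0.31 and 0.53 in the sets). Elane and F13a1 shared 64 nuclei at 0.825, with set 2 above 1 at 1.17 and the other sets at 0.56, 0.70 and 0.80. F13a1 and Rab44 shared 110 nuclei at 0.870. At a depth of 1000 UMIs the ratio was 1.00 for Ms4a3 and F13a1 and 1.11 for F13a1 and Rab44, and without thinning it was 1.06 for F13a1 and Rab44.

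**Figure D3:**
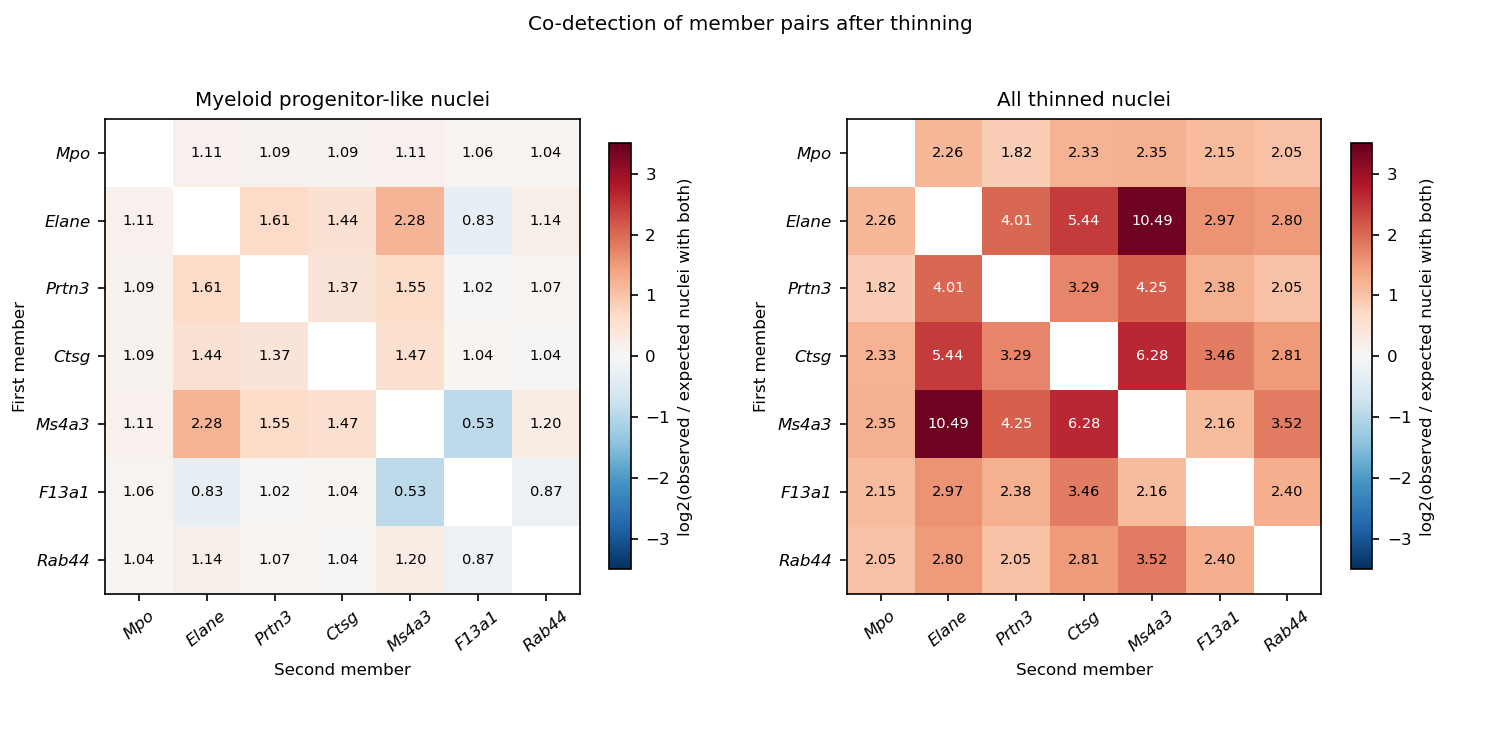
Nuclei that held both genes of a pair over the number expected from their 2 shares, in myeloid progenitor-like nuclei (left) and in all thinned nuclei (right); cells print the ratio and colours its log2. Elane and Ms4a3 stood at 2.28 on the left and 10.5 on the right, and the pairs below 1 on the left all held F13a1.

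The partners of Elane and F13a1 among regulator and receptor genes also differed in myeloid progenitor-like nuclei. Elane was found with Gfi1 in 22 nuclei, a ratio of 2.12, and with Cebpe, a factor gene of late granulocyte maturation, in all 4 nuclei that held Cebpe. With Irf8 it shared 33 nuclei at a ratio of 0.45, below 1 in each set (0.27, 0.69, 0.33 and 0.56). With Flt3, the receptor gene of early multipotent and lymphoid progenitors, it shared 21 nuclei at 0.32. F13a1 was found with Irf8 in 117 nuclei at 1.29 (1.33, 1.12, 1.41 and 1.22), with Csf1r, the receptor gene for macrophage colony-stimulating factor, in 32 nuclei at 1.59 (2.00, 0.98, 2.07 and 1.32), with Ly86 in 53 nuclei at 1.23, and with Gfi1 in 5 nuclei at 0.39. Ms4a3 resembled Elane, with Irf8 in 12 nuclei at 0.36 and Flt3 in 3 nuclei at 0.10. The mitosis gene Top2a was near 1 with Mpo (1.00), Elane (0.91), F13a1 (1.07) and Rab44 (1.03).

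In HSC-like nuclei the members were detected at a low level. After thinning, Mpo was found in 16.0% (13.8 to 18.3) of 1084 HSC-like nuclei (11.9%, 28.3%, 12.6% and 18.5% in the sets), and before thinning in 26.8%. Cell types that should lack Mpo gave a comparable share: 14.4% (9.13 to 21.1) of plasma cell-like nuclei and 18.9% (9.44 to 32.0) of T and NK cell-like nuclei. Median depths were 3323 UMIs in HSC-like, 3215 in plasma cell-like and 2512.5 in T and NK cell-like nuclei. The share in HSC-like nuclei lay within the wide intervals of both, from 146 and 53 nuclei, and at this depth is not separated from theirs. It was above the 5.56% (3.72 to 7.93) of erythroid progenitor-like nuclei, whose median depth was 8657.5 UMIs. By level, Mpo was at 112 CPM (103 to 122) in HSC-like nuclei, against 101 CPM in plasma cell-like and 60.6 CPM (53.9 to 68.0) in erythroid progenitor-like nuclei. The plasma cell-like nuclei lay mostly in sets 1 and 3, with 56, 2, 97 and 5 in sets 1 to 4. In sets 1 and 3 Mpo was at 64.0 and 117 CPM in plasma cell-like nuclei, against 67.5 and 69.1 CPM in HSC-like nuclei. The shares there were 18.8% and 13.2% in plasma cell-like nuclei, against 11.9% and 12.6% in HSC-like nuclei. Free RNA was not measured here, and its part in these values was not tested. Elane was found in 2.31%, Ctsg in 2.03%, F13a1 in 1.48%, Rab44 in 1.29% and Ms4a3 in 0.738% of HSC-like nuclei, and plasma cell-like nuclei gave 2.05% for Elane and 2.05% for Ctsg.

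Prtn3 was the member that took a larger place in HSC-like nuclei. It was found in 11.1% (9.26 to 13.1) of them after thinning (9.90%, 15%, 11.1% and 10.5% in the sets), against 6.16% (2.86 to 11.4) of plasma cell-like and 2.18% (1.09 to 3.87) of erythroid progenitor-like nuclei. The share in HSC-like nuclei thus lay within the wide interval of 146 plasma cell-like nuclei, and at this depth it is not separated from the share there. The level was 67.8 CPM (60.9 to 75.3) in HSC-like nuclei and 38.5 CPM (24.6 to 57.2) in plasma cell-like nuclei, whose intervals did not overlap. In sets 1 and 3, which held most plasma cell-like nuclei, Prtn3 was at 60.5 and 56.3 CPM in HSC-like nuclei, against 25.6 and 35.6 CPM in plasma cell-like nuclei. For Prtn3 in set 4, with 5 plasma cell-like nuclei, the values were 65.8 and 78.4 CPM. The pooled Prtn3 level is compared with erythroid progenitor-like nuclei next. It was 3.61 times (2.86 to 4.59) as high in HSC-like as in erythroid progenitor-like nuclei, at 3.25, 4.82 and 3.66 times in sets 1, 3 and 4 and at 0.992 times in set 2, which held 12 erythroid progenitor-like nuclei. Mpo stood at 1.85 times in the same comparison, and at 0.413 times in set 2.

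The make-up of the members' UMIs was also compared between clusters. Prtn3 took 11.3% (10.9 to 11.7) of the 7 genes' UMIs in myeloid progenitor-like nuclei (9.87%, 13.5%, 8.11% and 11.8% in the sets) and 30.1% (27.5 to 32.8) in HSC-like nuclei (37.1%, 25.3%, 33.9% and 28.7%). The sets of the 2 clusters did not overlap. In plasma cell-like nuclei it took 22.2% (14.8 to 31.2), in megakaryocyte-like nuclei 18.3% (15.9 to 20.9), in erythroid progenitor-like nuclei 18.0% (14.8 to 21.7) and in lymphoid progenitor-like nuclei 14.9% (13.1 to 16.8). The pooled share was largest in HSC-like nuclei, where its interval overlapped that of plasma cell-like nuclei and of no other cluster. It was 24.0% in HSC-like nuclei with the means of the sets kept in the clustering and 23.5% with 1000 variable genes. Mpo took 56.5% in myeloid progenitor-like, 63.1% in lymphoid progenitor-like, 58.2% in erythroid progenitor-like and 49.7% in HSC-like nuclei. Rab44 took 31.8% in T and NK cell-like, 25.2% in mast and basophil-like, 19.0% in Ect2-led mitotic and 18.1% in megakaryocyte-like nuclei, against 6.67% in myeloid progenitor-like and 4.76% in HSC-like nuclei.

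**Figure D4:**
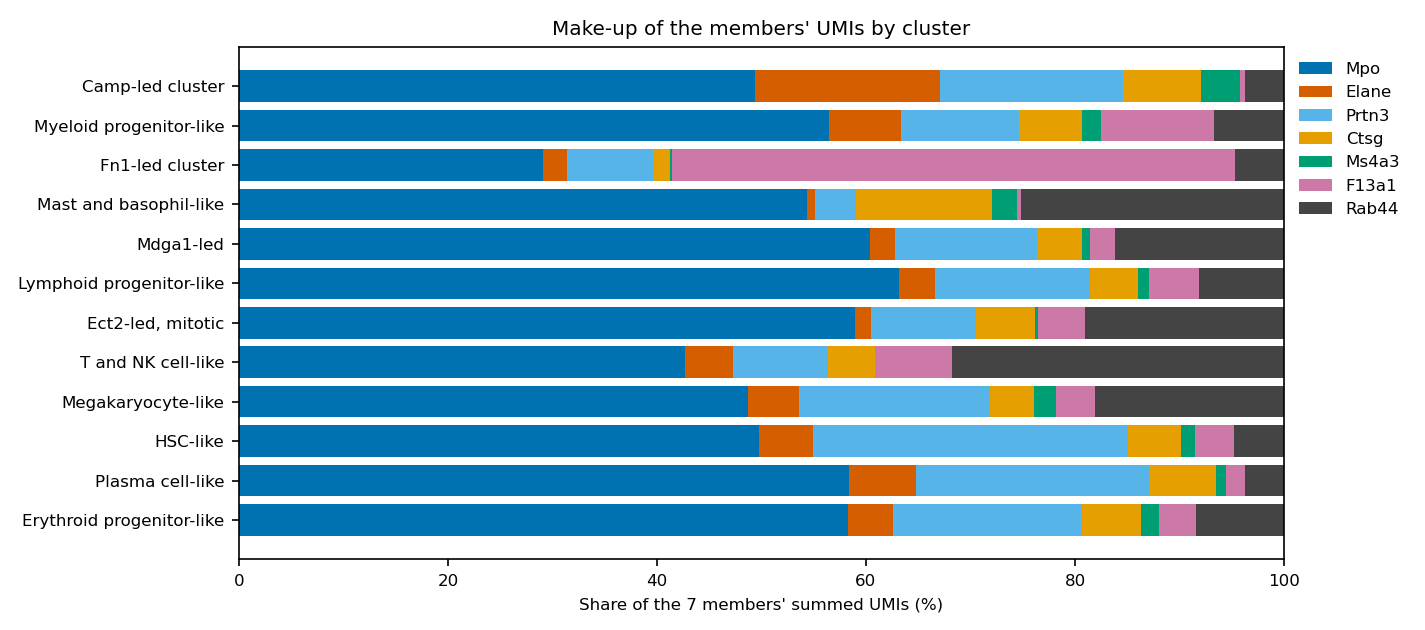
Share of the 7 genes' summed UMIs (percent) taken by each gene in 12 clusters of nuclei. Prtn3 took 11.3% in myeloid progenitor-like and 30.1% in HSC-like nuclei, and F13a1 took 53.8% in Fn1-led nuclei.

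The members found in HSC-like nuclei were mostly found alone. Of 1084 thinned HSC-like nuclei, 29.3% held at least 1 of the 7 genes, 24.5% exactly 1, and 7 nuclei held 3 or more. In the 266 nuclei with exactly 1, the gene was Mpo in 49.2%, Prtn3 in 33.5% and Rab44 in 2.26%. Mpo and Prtn3 shared 22 HSC-like nuclei, a ratio of 1.15, and Mpo and Rab44 shared 7 at a ratio of 3.13. Mpo was found with the stem cell gene Hlf at a ratio of 0.93. Few HSC-like nuclei therefore carried several members at this depth.

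In lymphoid progenitor-like nuclei Mpo and Rab44 were higher than in HSC-like nuclei in each set, while Elane and Prtn3 were not; 4.12% of 10184 measured genes were at least 1.5-fold higher when pooled and higher in each set. Mpo was at 177, 382, 191 and 197 CPM in lymphoid progenitor-like nuclei of sets 1 to 4, against 67.5, 209, 69.1 and 129 CPM in HSC-like nuclei. The sets overlapped between clusters through set 2, but the ratio was above 1 in each set (2.62, 1.83, 2.77 and 1.53) and 2.01 (1.82 to 2.24) when pooled. Rab44 stood at 2.70 times (1.95 to 3.78; 6.72, 2.39, 3.01 and 1.73 in the sets). Elane was at 12.2 CPM in lymphoid progenitor-like and 11.7 CPM in HSC-like nuclei, a ratio of 1.05 (0.708 to 1.54). Prtn3 was at 0.784 times (0.661 to 0.930), and at 1.06 times where the means of the sets were kept in the clustering. F13a1 was at 2.03 times when pooled but between 0.428 and 4.85 times in single sets.

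After thinning, 29.2% (26.1 to 32.4) of 837 lymphoid progenitor-like nuclei held Mpo (26.0%, 39.7%, 25.9% and 29.3% in the sets), against 16.0% of HSC-like nuclei. The share lay above the interval of plasma cell-like nuclei and within that of the 53 T and NK cell-like nuclei, and B cell-like nuclei gave 16.7%. In sets 1 and 3, which held most plasma cell-like nuclei, Mpo was found in 18.8% and 13.2% of plasma cell-like nuclei. Rab44 and Ctsg were each found in 3.70%, Prtn3 in 9.44%, Elane in 2.27%, F13a1 in 1.79% and Ms4a3 in 0.358% of lymphoid progenitor-like nuclei. Mpo shared 51 lymphoid progenitor-like nuclei with Irf8, a ratio of 1.5, 205 with Flt3 and 128 with Dntt, both at 1.00. Mpo was therefore found as often in nuclei with the lymphoid genes Dntt and Flt3 as in all nuclei of the cluster.

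The 3 clusters that met no lineage markers, and the Ect2-led mitotic cluster that met lymphoid ones, carried more Mpo and Rab44 than the lymphoid progenitor-like cluster. Mpo was found in 40.7% of Mdga1-led, 42.3% of Jazf1-led, 51.6% of Gm15564-led and 41.4% of Ect2-led nuclei, against 29.2% of lymphoid progenitor-like nuclei. Its level was 393, 382, 572 and 414 CPM in these 4 clusters, in the same order, against 226 CPM in lymphoid progenitor-like nuclei. Rab44 was at 105, 95.6, 148 and 133 CPM in the 4 clusters, against 29.0 CPM in lymphoid progenitor-like nuclei. Elane was at 15.6, 8.71, 38.8 and 10.7 CPM, against 12.2 CPM in lymphoid progenitor-like nuclei, so that it stood clear of that level in the Gm15564-led cluster alone among the 4. In megakaryocyte-like nuclei Rab44 was at 3.82 times (2.80 to 5.27; 10.2, 3.15, 3.75 and 2.70 in the sets) the HSC-like level, with Mpo at 0.985 and Prtn3 at 0.610 times. A raised Rab44 level was thus found on the lymphoid and megakaryocyte sides too.

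**Figure D5:**
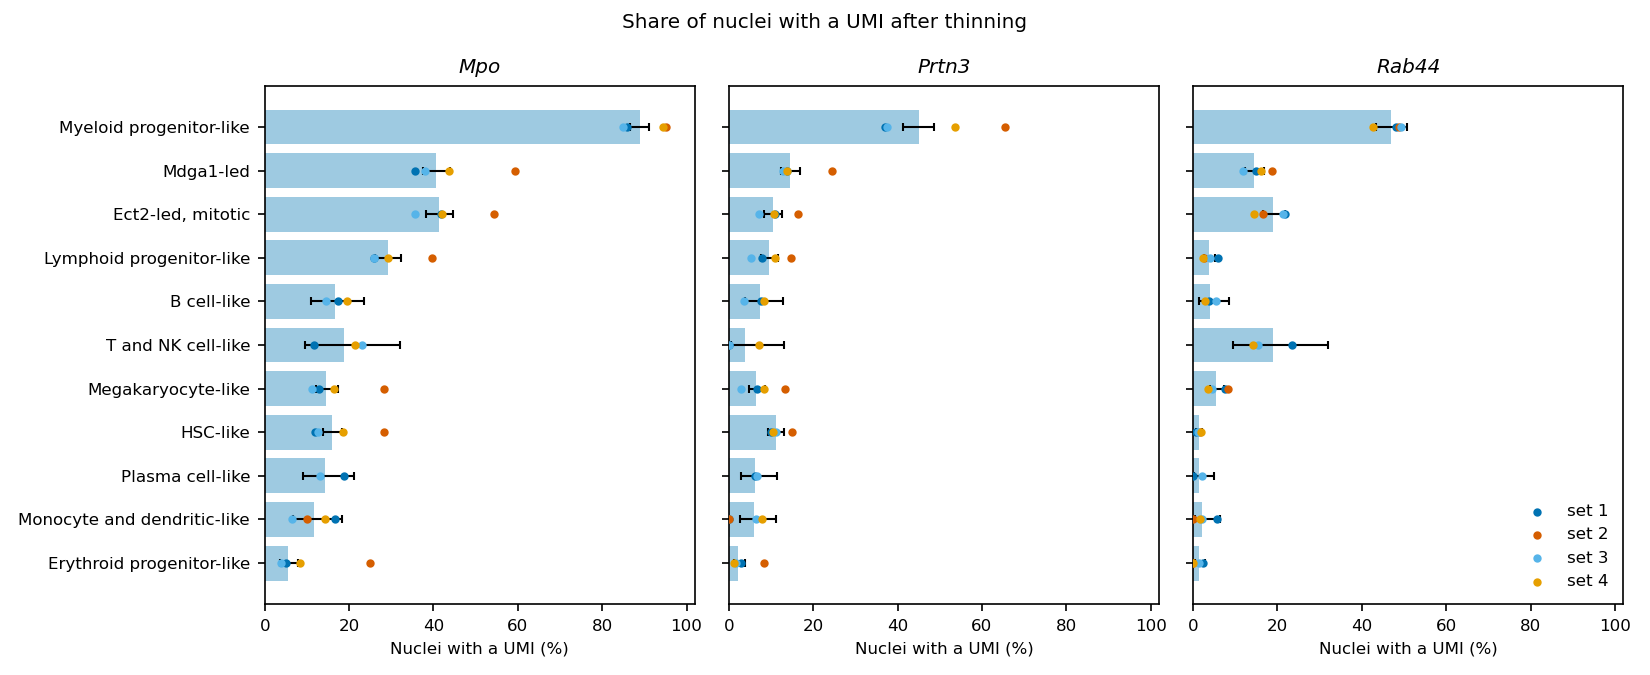
Share of nuclei with at least 1 UMI of Mpo, Prtn3 and Rab44 after thinning to 2000 UMIs (percent), in 11 clusters. Bars are all thinned nuclei with 95% intervals and points are barcode sets with at least 10 nuclei; Mpo was found in 89.1% of myeloid progenitor-like, 29.2% of lymphoid progenitor-like, 16.0% of HSC-like and 5.56% of erythroid progenitor-like nuclei.

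The surrounding programme was described with gene lists. A gene was called where (CPM + 10) was at least 1.5-fold higher or lower when pooled, with the same direction in all 4 sets, and at least 50 UMIs were counted over both clusters. Of 10243 genes measured, 8.48% were higher and 18.6% lower in myeloid progenitor-like than in HSC-like nuclei, and the median log2 ratio was -0.11. All 7 members were higher, with log2 ratios of 4.96 for F13a1, 4.61 for Mpo, 4.12 for Rab44, 4.10 for Elane, 3.92 for Ctsg, 3.04 for Ms4a3 and 2.95 for Prtn3. Ms4a3 and F13a1 reached 50 UMIs only with the myeloid progenitor-like nuclei counted. A gene measured only through the cluster where it is high had to differ, so the counts below, which hold further such genes, describe the lists and support nothing.

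Of 17 measured genes for primary granule cargo and partners, 10 were higher and 1 was lower. Of the 10, Cst7, Nkg7, Prss57, Hp and Slpi had under 50 UMIs in HSC-like nuclei (13, 48, 20, 9 and 5) and were measured only through the myeloid progenitor-like nuclei. Cst7, Nkg7, Prss57 and Hp were also among the markers that named the myeloid progenitor-like cluster, so their higher level was largely fixed in advance. Calr, the chaperone of myeloperoxidase folding, stood at 702 CPM in myeloid progenitor-like nuclei, against 154 CPM in HSC-like nuclei (log2 ratio 2.12). Plac8 stood at a log2 ratio of 2.01, the haptoglobin gene Hp at 1.92, the protease gene Prss57 at 1.64, the protease inhibitor gene Cst7 at 1.59 and the elastase inhibitor gene Serpinb1a at 0.82. Srgn, the proteoglycan on which granule proteases are stored, was lower, at 414 CPM in myeloid progenitor-like nuclei, against 732 CPM in HSC-like nuclei (-0.81). Ctsc, the enzyme that activates these proteases, passed in neither direction, at 38.2 CPM in myeloid progenitor-like nuclei, against 46.4 CPM in HSC-like nuclei (-0.23). The cargo genes that were higher thus did not include the activating enzyme or the storage proteoglycan.

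Of 7 heme and oxidant genes, 3 were higher and 0 lower. Alas1, the rate-limiting enzyme of heme synthesis outside red cells, was at 182 CPM in myeloid progenitor-like nuclei, against 16.4 CPM in HSC-like nuclei (2.87), and the oxidase genes Ncf1 and Cybb stood at log2 ratios of 1.54 and 1.01. Of 10 regulators, 4 were higher and 1 lower. Irf8 stood at 257 CPM in myeloid progenitor-like nuclei, against 9.74 CPM in HSC-like nuclei (3.76), and Csf1r (2.46), Zeb2 (1.83) and Cebpa (0.75) were higher too. Cybb, Ncf1, Csf1r and Cebpa were likewise measured only through the myeloid progenitor-like nuclei, with 22, 47, 9 and 9 UMIs in HSC-like nuclei. Csf3r, the receptor gene for granulocyte colony-stimulating factor, was lower, at 82.0 CPM in myeloid progenitor-like nuclei, against 131 CPM in HSC-like nuclei (-0.62). Irf8, Csf1r, Cebpa and Csf3r were also among the markers that named clusters. Of 12 secondary and tertiary granule genes 6 were measured, of which 0 were higher and 1 was lower, Padi4 with a log2 ratio of -1.75, and Camp stood at 5.76 CPM in myeloid progenitor-like nuclei, against 12.1 CPM in HSC-like nuclei. With 6 genes, a count of 0 is near the background share of 8.48%. Of 11 genes of granule traffic and release, 1 was higher, Rab27a (0.60), and 3 were lower, Rab27b (-2.33), Unc13d (-0.98) and Snap23 (-0.88). Rab27b, a platelet granule gene, was also a marker that named the megakaryocyte-like cluster.

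In lymphoid progenitor-like against HSC-like nuclei, 4.12% of 10184 measured genes were higher and 6.21% lower. Of the 6 members measured, 2 were higher and 0 lower, Mpo with a log2 ratio of 0.95 and Rab44 with 0.91, and Ms4a3 had too few UMIs. Of 14 cargo genes, Plac8 was higher (1.46) and Ctsc (-0.59) and Cd63 (-1.44) were lower. Of 9 regulators 3 were higher, Irf8 (2.26), Csf1r (1.13) and Zeb2 (0.68), and of 6 heme and oxidant genes 2 were higher, Ncf1 (2.00) and Ncf4 (0.65), and Fech was lower (-0.66). Csf1r and Ncf1 were measured only through the lymphoid progenitor-like nuclei. Alas1 and Elane were not among the genes called higher there.

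The genes most like a member were ranked by Pearson's r of log2(CPM + 10) over the 17 clusters among 10373 genes, as a description with no p, since the clusters share libraries and depth. For Mpo they were Anxa3 (0.927), Pgam1 (0.922) and Ttc39c (0.893), and among the members Ctsg (0.960) and Prtn3 (0.914) lay closest. For Elane they were Alas1 (0.974), Aff2 (0.951) and Abcd2 (0.947), with Prtn3 at 0.947 and Ms4a3 at 0.936. For F13a1 they were Nrg1 (0.897), Csf1r (0.869) and Cfp (0.815), and F13a1 stood at 0.491 with Mpo, 0.482 with Elane and 0.312 with Ms4a3. By Spearman's rho the nearest genes were Anxa3 (0.914), Ccl9 (0.873) and Ints1 (0.865) for Mpo, Aff2 (0.757), Ly6c2 (0.716) and Gpc1 (0.703) for Elane, and Rab7b (0.861), Fbxw11 (0.855) and Mpeg1 (0.850) for F13a1. The 2 measures thus shared Anxa3 and Aff2 among these nearest 3, and none for F13a1.

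The protease locus on chromosome 10 was looked at beyond Prtn3 and Elane. Within 100 kb on each side it held 16 coding genes. Prss57, a further serine protease gene, stood at 33.2 CPM in myeloid progenitor-like nuclei, against 3.90 CPM in HSC-like nuclei. It was also a marker that named the myeloid progenitor-like cluster. Palm was at 65.9 CPM in myeloid progenitor-like nuclei, against 9.74 CPM in HSC-like nuclei, and R3hdm4 at 32.6 CPM in myeloid progenitor-like nuclei, against 58.5 CPM in HSC-like nuclei. Cfd, the gene of the protease complement factor D, had 2 UMIs in myeloid progenitor-like and 0 in HSC-like nuclei. Neighbours of the protease genes thus had levels both higher and lower in myeloid progenitor-like nuclei.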

How the data were processed

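The deposited values are raw UMI counts, 1 column per nucleus, per the file header and a check that all are whole numbers. Cell Ranger ARC, Seurat, Signac and the build mm10 are named in the submitters' processing notes; their versions, the annotation and the filters on nuclei are not stated there. The table has 0 other per-sample columns. From these deposited counts, nuclei were scaled to 10000 UMIs and log-transformed. From 2000 variable genes without the 7 members, 30 principal components were taken, each barcode set was centred on 0, and nuclei were joined by 15 neighbours and clustered (scanpy 1.11.5, leidenalg 0.10.2, resolution 0.8). A marker was met where it was in at least 5% of a cluster's nuclei and at 2 times the level elsewhere. A cluster was named from the list with most markers met, if at least 3 and more than for any other list. The name was dropped where another list had more markers among the cluster's 10 leading genes. By this last rule the Camp-led cluster, with 11 myeloid progenitor and 9 neutrophil markers met, was not named myeloid progenitor-like. No nuclei were removed as doublets; leaving out the 5% with the highest doublet score per set was an alternative.

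With no map from nuclei to the samples, the table was 1 sample of nuclei, and edgeR on sums per sample, fixed for T58A against WT, was not run. Levels have exact Poisson intervals, ratios exact binomial and shares Clopper-Pearson intervals (95%), which cover counting error only. Shares and positions used nuclei thinned to 2000 UMIs. The text names all 7 members, members of 5 fixed gene lists, some of 17 partner genes and marker or leading genes of clusters. It also names the 3 genes most like Mpo, Elane and F13a1 by Pearson's r and by Spearman's rho. Any other gene named, such as Palm, R3hdm4 and Cfd, was chosen after its values were seen. The members and lists were chosen with earlier results of these data known.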

Additional observations from a re-analysis of the deposited data

How the results depend on the processing

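Alternatives changed 1 step at a time, and of 59 values for the 6 main results 41 moved by less than their spread. The Mpo ratio of myeloid progenitor-like over HSC-like nuclei, 26.4, was 20.9 with set means kept, 22.7 with 1000 variable genes, 36.4 at resolution 1.2, and 25.3 to 27.7 without single sets. The 29.2% of lymphoid progenitor-like nuclei with Mpo became 16.9% at 1000 UMIs, 54.3% at 4000, 48.2% unthinned, 35.2% with set means kept, 25.6% with 1000 variable genes, and 27.5% to 30.3% without single sets. F13a1 lay 13.8 percentile points after Rab44, 10.6 by pseudotime and 12.2 to 14.7 without single sets. The co-detection ratio of Elane and Ms4a3, 10.5, was 12.4 at 1000 UMIs, 7.43 at 4000, 7.22 unthinned, 2.28 in myeloid progenitor-like nuclei, and 9.89 to 10.7 without single sets. The Prtn3 share of the members' UMIs in HSC-like nuclei, 30.1%, was 24.0% with set means kept, 23.5% with 1000 variable genes, 26.9% at resolution 1.2, 26.0% with the members kept among the clustering genes, and 28.8% to 31.9% without single sets. The 869 genes higher in myeloid progenitor-like nuclei became 367 at 2-fold, which asks for a larger change, and 780 to 982 without single sets. Of 715 other values, 9 changed direction. The Prtn3 ratio of lymphoid progenitor-like over HSC-like nuclei was 1.06 with set means kept. F13a1 minus Elane was -3.27 by pseudotime, and Elane minus Ms4a3 ran from -0.089 (without set 4) to 2.84 without single sets. Against ratios above 1 in all nuclei, myeloid progenitor-like nuclei alone gave 0.825 for Elane and F13a1, 0.534 for Ms4a3 and F13a1, and 0.870 for F13a1 and Rab44; there the last 2 were 1.00 and 1.11 at 1000 UMIs, and the last was 1.06 unthinned. The causes were not tested. Depth limits what shares of nuclei with a UMI can show for Elane and Ms4a3. No paired analysis was possible because the columns carry no replicate or genotype, and edgeR with its replicate block was not run.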
